A study of Homo sapiens with 14 samples.

Results

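The 9 genes described here are the listed members of the transforming growth factor beta (TGF-beta) pathway: the ligand genes TGFB1 and TGFB2, the receptor genes TGFBR1 and TGFBR2, the receptor-regulated SMAD genes SMAD2 and SMAD3, the inhibitory SMAD gene SMAD7 and the repressor genes TGIF1 and TGIF2. They were chosen by symbol. All 9 were found among the 24199 features listed for DU145 and among the 44591 genes listed for LNCaP. DU145 and LNCaP are human prostate cancer cell lines. The DU145 experiment compared 3 shCON libraries, from a stable line carrying a non-target shRNA, with 3 shPAX6 libraries, from stable lentiviral knockdown cells in which PAX6, a homeobox and paired-box transcription factor of eye and brain, was targeted. Both arms were thus transduced DU145 cells. The methods of the study list 2 PAX6 hairpins and call the lines subclones, and the labels do not say which hairpin a library carries or whether the 3 libraries come from separate cultures, so p-values measure only the spread between these libraries. The LNCaP experiment compared 1 library of parental cells with 1 library of LNCaP-ENZ cells, grown for 30 days with the prostate cancer drug enzalutamide at 20 µM, so that every difference between the arms is one between single libraries. The methods of the study speak of replicates for every cell line, but the labels give 1 LNCaP library per arm, and whether each pools several cultures is not stated.

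TGF-beta ligands are secreted in a latent form and, once freed, bind the type II receptor TGFBR2, which recruits and phosphorylates the type I receptor TGFBR1. The type I receptor phosphorylates SMAD2 and SMAD3, which enter the nucleus with SMAD4 and act on target genes, while SMAD7, itself a target, blocks the receptor. TGIF1 and TGIF2 are homeodomain proteins that bind SMAD complexes and recruit corepressors, so that they limit transcription driven by SMADs. In prostate epithelium the pathway is known as a brake on growth that many tumours escape.

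The DU145 values are FPKM, a level per transcript length and library size, and they keep no read depth, so the depth behind each value is unknown. The LNCaP values are counts, with totals of 20468001 in the parental and 17945722 in the LNCaP-ENZ library. The PAX6 FPKM was 0.839, 1.23 and 1.57 in the shCON libraries and 0.0153, 0.274 and 0.0778 in the shPAX6 libraries, with no overlap between the groups, although the limma test of the log2 change gave an adjusted p = 0.054. Over all tested features 20.0% were lower without overlap. PAX6 reached the filter for testing, a mean of 0.5 FPKM, only through its shCON values (mean 1.21 against 0.123 FPKM). The sum of FPKM over all features ran from 470857 to 485479 in the shCON libraries and from 448901 to 570790 in the shPAX6 libraries, the highest being shPAX6 library 1. That library also had the lowest median FPKM over tested features, 5.58 against 7.25 to 7.86 in the shCON libraries. Of 7 luminal prostate markers, 3 reached a mean of 0.5 FPKM in DU145, whereas all 7 had counts in both LNCaP libraries. Of the fibroblast and endothelial markers, 0 of 6 and 0 of 4 reached 0.5 FPKM in DU145, and 1 of 9 leukocyte markers did.

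The DU145 results turn on TGIF2, and the 250 bases upstream of its start are shown beside those of its paralog TGIF1. They were taken from RefSeq (GRCh38.p14), in which all 9 members were matched, and lie at chr18:3411759-3412008 and chr20:36573214-36573463, both on the plus strand. Only the first promoter listed for each gene was used, so any other start is not covered. Capitals mark the SMAD box, searched as CAGAC and its reverse complement GTCTG.
TGIF1: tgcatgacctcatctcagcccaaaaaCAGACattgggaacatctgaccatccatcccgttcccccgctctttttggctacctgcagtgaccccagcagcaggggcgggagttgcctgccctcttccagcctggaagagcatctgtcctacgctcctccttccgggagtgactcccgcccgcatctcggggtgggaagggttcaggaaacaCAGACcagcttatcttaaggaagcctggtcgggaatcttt
TGIF2: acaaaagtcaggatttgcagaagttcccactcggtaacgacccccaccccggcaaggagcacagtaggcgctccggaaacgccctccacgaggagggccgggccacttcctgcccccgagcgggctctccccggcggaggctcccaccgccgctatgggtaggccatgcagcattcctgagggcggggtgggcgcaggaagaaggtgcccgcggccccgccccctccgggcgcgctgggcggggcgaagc
The TGIF1 window held 2 SMAD boxes and the TGIF2 window 0, and 37.79% of 27305 promoter windows of the same kind held at least 1. The TGIF core, TGTCA or its reverse complement TGACA, was in neither window and in 34.43% of all windows. The GC content was 71.2% for TGIF2 and 57.6% for TGIF1. These matches are letters in a window and say nothing about binding.

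TGIF2 fell in the shPAX6 cells, and it was the only one of the 9 members that passed the test. Its FPKM was 3.90, 4.42 and 4.11 in the shCON libraries and 1.21, 1.77 and 1.73 in the shPAX6 libraries. Every shPAX6 library lay below every shCON library, and the means were 4.14 ± 0.262 and 1.57 ± 0.310 (SD, n = 3 each), a ratio of 0.378. On the log2(FPKM + 0.1) scale the change was -1.36 (SE 0.22, 95% interval -1.88 to -0.85), with an adjusted p = 0.040 over 13574 features. Over all tested features 1.2% passed this threshold in either direction and 1.02% passed it as lower in shPAX6. The share of all calls that were lower was 85.3%, and 60% with a GC correction, 68.6% with quantile normalization and 72% with median centring. The exact two-sided permutation test on the 6 values gave p = 0.10, the smallest that 3 against 3 allows. The decrease of TGIF2 in these libraries was known when the members were chosen, so its call is not independent evidence. The call did not hold without several single libraries and in some settings: the adjusted p was 0.22 without shCON library 1, 0.27 without shCON library 2, 0.29 without shCON library 3, 0.19 without shPAX6 library 3, 0.065 with no filter on low values, and 0.075 with the libraries rescaled to the same FPKM sum, while the log2 change stayed between -1.45 and -1.01 in every setting run. Few features of any kind passed with those libraries left out. They numbered 0, 5 and 0 without shCON libraries 1, 2 and 3, and 10 without shPAX6 library 3, against 163 with all libraries.

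TGIF2 lies at chr20:35201876-35222355 (GRCh37, plus strand, ENSG00000118707). A readthrough gene that joins it to RAB5IF overlaps it on the same strand, at 35202956 to 35240787, so reads in shared exons can be assigned to either. In DU145 the readthrough was listed at 0.534, 0.211 and 0.153 FPKM in shCON and at 0 in all 3 shPAX6 libraries. Its levels were under those of TGIF2 in each library and below the filter, and it was not tested. In LNCaP the readthrough, under its older name TGIF2-C20orf24, had 1094 counts in parental and 1179 in LNCaP-ENZ cells, more than TGIF2 itself.

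TGIF1, the paralog of TGIF2, did not follow it. Its FPKM was 41.1, 37.7 and 36.5 in the shCON libraries and 27.6, 51.1 and 39.5 in the shPAX6 libraries. The shPAX6 values spread to both sides of the shCON values, and the log2 change was -0.01 (95% interval -0.52 to 0.51, adjusted p = 0.99). The 2 genes can be set against each other within each library, where any common scaling cancels. The ratio of TGIF2 to TGIF1 FPKM was 0.0949, 0.117 and 0.112 in shCON and 0.0439, 0.0346 and 0.0438 in shPAX6. The ratio was lower in every shPAX6 library, by a mean log2 difference of -1.41, with an exact permutation p = 0.10, again the smallest possible, and 0.25 after adjustment over the 5 ratios computed. The decrease of TGIF2 was known beforehand and TGIF1 barely changed, so this ratio mostly restates that decrease and is not independent evidence.

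**Figure D1:**
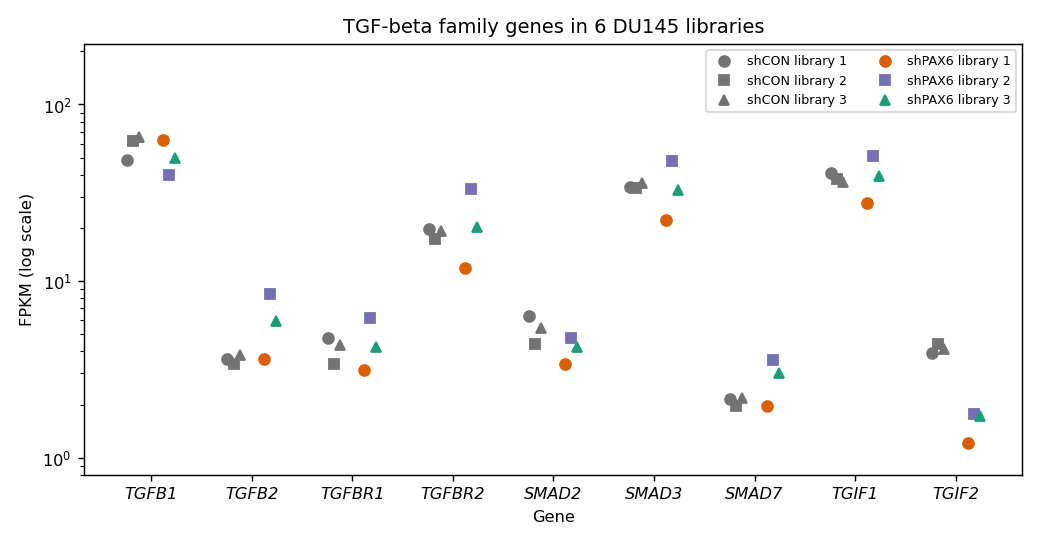
FPKM of the 9 genes (log axis) in the 3 shCON libraries (grey) and the 3 shPAX6 libraries (coloured); each point is 1 library. TGIF2 is the gene whose groups separate, at 3.90 to 4.42 against 1.21 to 1.77, while for TGFBR1, TGFBR2, SMAD3 and TGIF1 shPAX6 library 1 lies under and shPAX6 library 2 above all shCON libraries.

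By Pearson's r over the 6 libraries on the log2 scale, the features whose levels were most like those of TGIF2 were BARX2, a homeobox factor (r = 0.998), SIK1, a salt-inducible kinase (0.997), ACOX3, a peroxisomal oxidase (0.997), the sodium-proton exchanger gene SLC9A3 (0.997) and TMEM150C (0.997). The 6 libraries form the 2 groups of the experiment, so these values mostly restate the difference between them. BARX2 fell by 2.03 and SIK1 by 1.99 on the log2 scale (adjusted p = 0.025 for both), and the other 3, with log2 changes of -1.08 to -0.57, did not pass.

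Neither ligand gene passed the test in DU145. TGFB1 was the most abundant member, at 48.7, 61.8 and 65.5 FPKM in shCON and 63.2, 39.98 and 50.04 in shPAX6. These ranges overlap, and the log2 change was -0.21 (95% interval -0.68 to 0.26, adjusted p = 0.64). TGFB1 overlaps genes on the opposite strand, among them TMEM91, and without a stated use of strand their reads cannot be told apart. TGFB2, the ligand that needs the coreceptor betaglycan for tight receptor binding, was at 3.60, 3.39 and 3.79 FPKM in shCON and 3.64, 8.49 and 5.96 in shPAX6. The values of shPAX6 libraries 2 and 3 were above all shCON values and that of library 1 within them. The log2 change of TGFB2 was 0.65 (95% interval -0.05 to 1.35, adjusted p = 0.31), and without shPAX6 library 1 it was 0.97 with an adjusted p = 0.027. In that setting 924 of 13625 features passed, against 163 of 13574 with all libraries. With any other single library left out TGFB2 did not pass (limma adjusted p from 0.32 to 0.63). The ratio of TGFB1 to TGFB2 had a geometric mean of 16.2 in shCON and 8.82 in shPAX6, with overlapping groups (exact permutation p = 0.3).

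Neither receptor gene passed, and TGFBR2 had the widest spread of the 9 members among the shPAX6 libraries. TGFBR2 was at 19.8, 17.3 and 19.1 FPKM in shCON and at 11.9, 33.1 and 20.2 in shPAX6. The highest shPAX6 library exceeded the lowest by 2.79-fold, against 1.14-fold in shCON, and the log2 change was 0.09 (95% interval -0.69 to 0.87, adjusted p = 0.92). TGFBR1 was at 4.74, 3.38 and 4.33 FPKM in shCON and 3.13, 6.15 and 4.21 in shPAX6 (log2 change 0.07, 95% interval -0.57 to 0.72, adjusted p = 0.93). Within libraries the 2 receptors kept near the same proportion. The ratio of TGFBR2 to TGFBR1 ran from 4.17 to 5.12 in shCON and from 3.79 to 5.38 in shPAX6, with a log2 difference of 0.02 (exact permutation p = 1).

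Of the receptor-regulated SMADs, SMAD3 was at 34.3, 33.5 and 36.1 FPKM in shCON and 22.1, 47.8 and 32.6 in shPAX6 (log2 change -0.09, 95% interval -0.69 to 0.52, adjusted p = 0.90). SMAD2 was at 6.30, 4.41 and 5.46 FPKM in shCON and 3.38, 4.77 and 4.25 in shPAX6 (log2 change -0.37, 95% interval -0.88 to 0.13, adjusted p = 0.42). The groups overlapped for both. SMAD7 was the least abundant member in shCON, at 2.15, 1.95 and 2.16 FPKM, and stood at 1.96, 3.56 and 3.01 in shPAX6 (log2 change 0.39, 95% interval -0.21 to 0.99, adjusted p = 0.48). Divided by SMAD3 in the same library, SMAD7 was 0.0627, 0.0583 and 0.0600 in shCON and 0.0887, 0.0746 and 0.0924 in shPAX6. This ratio was higher in all 3 shPAX6 libraries, by a log2 difference of 0.49, with the smallest exact permutation p of 0.10 and 0.25 after adjustment over the 5 ratios. Over single features 26.7% did not overlap between groups, and the share over pairs of genes was not computed. The ratios were not corrected for transcript GC content, which was 57.0% for SMAD7 and 51.1% for SMAD3. The ratio of SMAD2 to SMAD3 overlapped between groups (log2 difference -0.29, exact permutation p = 0.4).

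**Figure D2:**
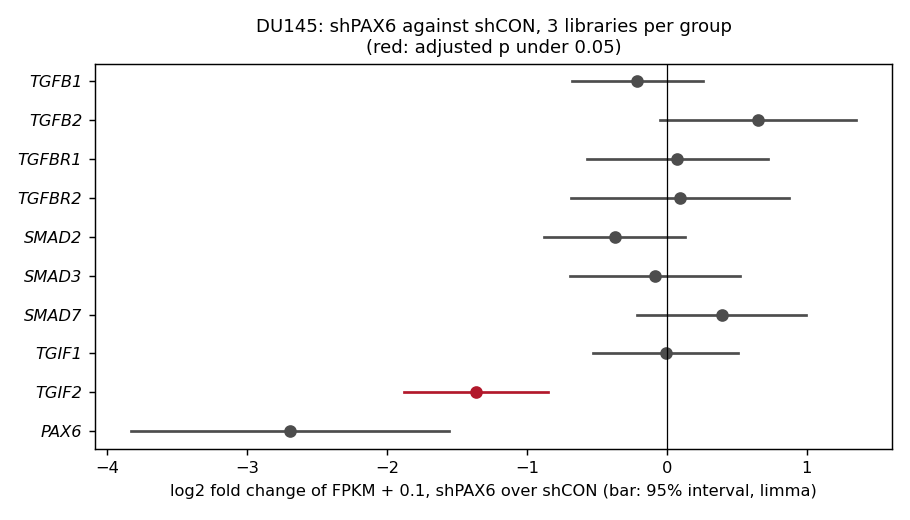
Log2 fold change of FPKM + 0.1 in shPAX6 over shCON for the 9 genes and PAX6, with 3 libraries per group; points are limma estimates, bars their 95% intervals, and red marks an adjusted p under 0.05. TGIF2, at -1.36, is the point in red, and the intervals of the other 8 members include 0.

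Over the 9 members, 4 had a positive and 5 a negative log2 change, with a median of -0.01. Beside this, 5032 of all 13574 tested features had a positive and 8542 a negative change, with a median of -0.12. The groups did not overlap for 1 member, TGIF2, which was lower. Over all features they did not overlap for 26.7%, and 20.0% were lower without overlap. In each of the 8 members that did not pass, the highest shPAX6 library exceeded the lowest by more (1.41- to 2.79-fold) than the group means differed. For 8 members, all but TGFB1, shPAX6 library 2 was highest, library 3 next and library 1 lowest, and 46.8% of all tested features had this order. PAX6 itself had it too. In 4 members, TGFBR1, TGFBR2, SMAD3 and TGIF1, library 1 lay under and library 2 above all shCON values, as in 25.3% of all tested features. TGFB1 had the reverse order, and it is the member of highest transcript GC content, 63.6%, where the others run from 38.8% to 57.0%. With GC content corrected within each library, the log2 change of TGFB1 was 0.08 and that of TGIF2 -1.17 (adjusted p = 0.024), and the direction of TGFB1, SMAD3 and TGIF1 turned.

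The order of the levels in shCON, by mean FPKM, was TGFB1 (58.7 ± 8.87), TGIF1 (38.4 ± 2.36), SMAD3 (34.6 ± 1.34), TGFBR2 (18.7 ± 1.28), SMAD2 (5.39 ± 0.948), TGFBR1 (4.15 ± 0.699), TGIF2 (4.14 ± 0.262), TGFB2 (3.59 ± 0.202) and SMAD7 (2.09 ± 0.120), each as mean ± SD with n = 3. The ranges of neighbours in this order were separate except for SMAD2 and TGFBR1, and TGFBR1 and TGIF2. In shPAX6 the 4 most abundant genes kept their order but TGFB1, TGIF1, SMAD3 and TGFBR2 overlapped from neighbour to neighbour. TGIF2 moved to the last place, with its highest shPAX6 value, 1.77, under the lowest of SMAD7, 1.96.

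**Figure D3:**
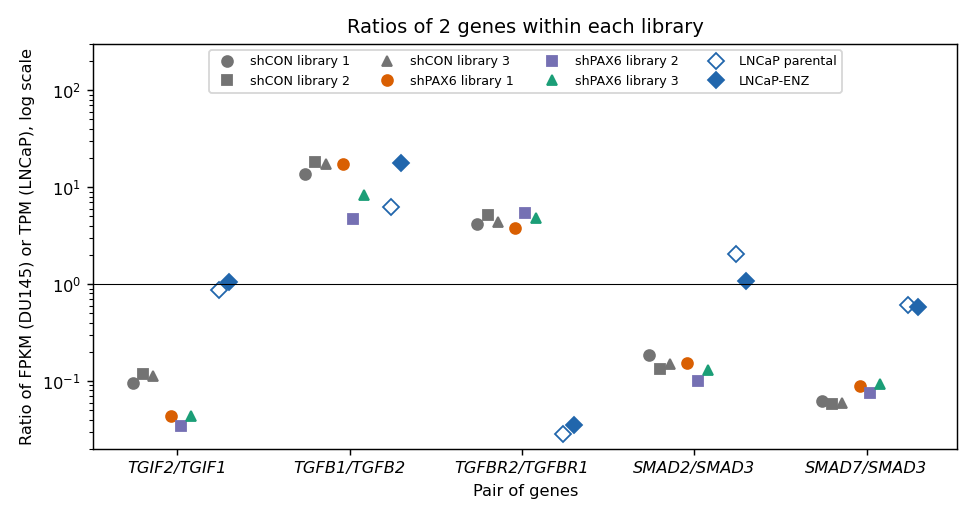
Ratio of FPKM (DU145) or TPM (LNCaP) of 2 genes within each library, on a log axis; each point is 1 library. The ratio of TGIF2 to TGIF1 is lower in all 3 shPAX6 libraries than in shCON, that of SMAD7 to SMAD3 is higher, and the other 3 overlap. The TGIF2 to TGIF1 ratio mostly restates the decrease of TGIF2. The DU145 and LNCaP tables were made separately, and gene lengths and read assignment can differ, so ratios are to be compared within a cell line.

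Other genes of the pathway were taken from 6 lists of 74 genes in all, of which 53 passed the filter on low values in DU145 and 3 passed the test, 1 of them (BMP6) carried past the filter by its shPAX6 values. Over all features 1.2% passed the test. The median log2 change of the 53 genes was -0.15, near that of all features. CDKN2B, the gene of the cell cycle inhibitor p15 that TGF-beta induces, fell from 5.49 ± 0.591 to 2.17 ± 0.352 FPKM (n = 3 each, log2 change -1.30, adjusted p = 0.038). JUNB, an early target that encodes an AP-1 subunit, fell from 59.8 ± 10.2 to 29.1 ± 3.21 FPKM (log2 change -1.03, adjusted p = 0.041). BMP6, a bone morphogenetic protein, rose from 0.302 ± 0.0645 to 1.26 ± 0.301 FPKM (log2 change 1.75, adjusted p = 0.044). Each of these 3 calls was lost without any 1 of the 3 shCON libraries or without shPAX6 library 3 (adjusted p from 0.14 to 0.29), and with no filter (0.063 to 0.088). With 1 of those libraries left out, 0 to 10 of all tested features passed. With libraries rescaled to the same FPKM sum BMP6 (0.081) and CDKN2B (0.072) did not pass, nor did BMP6 with a pseudocount of 0.01 (0.054), or JUNB with median centring (0.15) and with eBayes without a trend (0.058).

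The target genes as a list were mixed. Of 17 tested, 8 had a positive and 9 a negative log2 change, 2 passed as lower, and the largest positive changes, of ID2 (0.64, adjusted p = 0.105) and of the matricellular gene CTGF (0.51, adjusted p = 0.25), did not pass. Of 7 latency and activation genes tested, 6 had negative values and 0 passed. Negative values were also the more common ones over all 13574 tested features, with 8542 negative and 5032 positive. All 4 latent TGF-beta binding proteins, which tether the latent ligand to matrix, were lower without overlap: LTBP1 by a log2 change of -1.11, LTBP2 -0.99, LTBP3 -0.55 and LTBP4 -0.44, with adjusted p from 0.17 to 0.25. Over all features 20.0% were lower without overlap. With GC content corrected, these values were -0.93, -0.74, -0.21 and -0.11. All 5 other SMADs had negative changes and 0 passed, with SMAD1 at -0.88 and SMAD9 at -0.45, and SMAD1 was much lower in shPAX6 library 1 (1.85 FPKM) than in libraries 2 and 3 (8.39 and 7.55).

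Among 4 other superfamily ligands tested, TGFB3, which reached the filter only through its shCON values (mean 0.681 against 0.375 FPKM), had a log2 change of -0.69 (adjusted p = 0.31) and GDF11 of 0.24 (adjusted p = 0.63). The 5 other receptors tested ran from -0.31 for ACVR1B to 0.18 for ACVR1 and 0.28 for ACVR2A, and 0 passed. Of 15 negative regulators and corepressors, 0 passed. The SMAD corepressors SKI and SKIL stood at -0.57 and -0.51, the pseudoreceptor BAMBI at 0.40 and STRAP, a partner of SMAD7, at 0.37. Over the 53 genes, 14 had an unadjusted limma p under 0.05, and 17 did not overlap between groups, 5 higher and 12 lower. These are 26.4% and 32.1% of the 53, beside 18.3% and 26.7% of all tested features, and lower without overlap were 22.6% beside 20.0%.

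The same genes stood in another order in LNCaP. Levels are compared between genes as deposited TPM, which are per length. In parental cells TGIF1 was highest, at 10.9 TPM, followed by SMAD2 (10.5), TGIF2 (9.53), SMAD3 (5.17), TGFBR1 (3.78) and SMAD7 (3.14), with TGFB1 (0.428), TGFBR2 (0.108) and TGFB2 (0.0680) far below. DU145 and LNCaP were deposited in different units, and their levels are given only as ranks among the 18808 symbols both tables list, as a description with no test. TGFB1 stood between the 91.0th and 93.5th percentile in the shCON libraries but at the 36.5th in parental LNCaP. TGFBR2 stood at 78.7 to 80.2 in shCON and at 28.6 in parental LNCaP. TGIF2 went the other way, at 55.8 to 58.5 in shCON, 46.6 to 48.3 in shPAX6, and 73.3 in parental LNCaP. So did SMAD2 (58.5 to 62.5 in shCON, 74.9 in parental LNCaP) and SMAD7 (48.4 to 48.7, and 53.8). TGFB2, SMAD3 and TGIF1 ranked lower in parental LNCaP, and TGFBR1 lay within its shCON range. The overlapping readthrough gene, with more LNCaP counts than TGIF2, limits the rank of TGIF2.

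In LNCaP-ENZ cells 0 of the 7 members with a mean of at least 1 CPM, a count scaled by the library total, differed by 2-fold or more on the log2(CPM + 0.1) scale. Over all 14767 genes at that level 11.4% did, 9.57% as lower in LNCaP-ENZ, and the median log2 ratio of these genes was -0.15. Intervals given here are exact 95% intervals and cover counting error only. SMAD2 had 2219 counts in parental and 1115 in LNCaP-ENZ cells, 108 and 62.1 CPM (log2 ratio -0.80, -0.91 to -0.70). TGFBR1 had 484 and 274 counts, 23.6 and 15.3 CPM (-0.63, -0.85 to -0.41). TGIF1 had 881 and 603 counts, 43.0 and 33.6 CPM (-0.36, -0.51 to -0.21). These 3 were lower in the LNCaP-ENZ library by more than counting error, and by more than the median of all expressed genes.

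TGIF2 had 677 counts in parental and 553 in LNCaP-ENZ cells, 33.1 and 30.8 CPM, with a log2 ratio of -0.10 and an interval of -0.27 to 0.06. SMAD3 (672 and 637 counts, 0.11, -0.05 to 0.27) and SMAD7 (212 and 191 counts, 0.04, -0.25 to 0.33) also had intervals that include 0. For these 3, no difference between the libraries was detectable at this depth with scaling by library totals. With the median of expressed genes set to 0, SMAD3 stood at 0.27, SMAD7 at 0.19 and TGIF2 at 0.05. The intervals were not recomputed for that scaling, and that of SMAD3 depends on it. TGFB1 was the member that stood higher in LNCaP-ENZ cells, with 23 and 41 counts, 1.12 and 2.28 CPM, and a log2 ratio of 0.96 (0.25 to 1.83). It passed 2-fold under other scalings, at 1.10 with TMM factors and 1.12 with the median of expressed genes set to 0. TGFB2, with 8 and 5 counts, and TGFBR2, with 10 and 7, were under 1 CPM in both libraries. PAX6 had 11 counts in parental and 4 in LNCaP-ENZ cells.

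**Figure D4:**
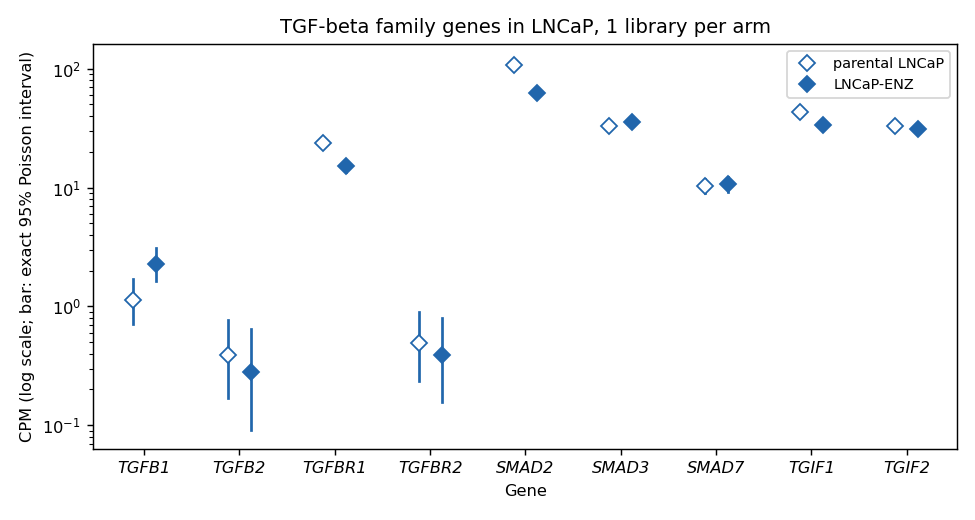
CPM (log axis) of the 9 genes in parental LNCaP (open) and LNCaP-ENZ (filled), 1 library each; bars are exact 95% Poisson intervals, hidden where shorter than the symbol. SMAD2 is lower in LNCaP-ENZ, 62.1 against 108, TGFB1 is higher, 2.28 against 1.12, and TGFB2 and TGFBR2 lie under 1.

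Within libraries, the ratio of SMAD2 to SMAD3 was 2.03 in parental and 1.08 in LNCaP-ENZ cells by TPM, and the log2 odds ratio of their counts was -0.92 (exact 95% interval -1.11 to -0.72). The ratio of TGIF2 to TGIF1 was 0.877 and 1.05 (log2 odds ratio 0.26, 0.03 to 0.48). In DU145 shCON cells TGIF2 stood at 0.0949 to 0.117 of TGIF1 by FPKM. The 2 tables were made separately, and gene lengths and the assignment of readthrough reads can differ, so the distance between the cell lines was not tested. The intervals of the other 3 LNCaP ratios include 0.

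Of the 74 other pathway genes, 54 were at a mean of at least 1 CPM in LNCaP, and 13 (24.1%) differed by 2-fold or more, 3 of them higher and 10 of them lower. Over all genes at that level 11.4% did, 9.57% as lower. The median log2 ratio of the 54 genes was -0.38. BAMBI, the pseudoreceptor that blocks type I receptors, had 1780 counts in parental and 5338 in LNCaP-ENZ cells (log2 ratio 1.77, 1.70 to 1.85). Other negative regulators stood lower, with log2 ratios of -1.11 for the corepressor CTBP2 (2012 and 816 counts) and -2.10 for PMEPA1, while FKBP1A, which binds the type I receptor, stood at 0.76. The inhibitors of differentiation ID3 (253 and 1036 counts, 2.21, 2.02 to 2.43) and ID1 (20 and 73 counts, 1.95, 1.33 to 2.85) were higher. SNAI2, a zinc-finger factor of epithelial-mesenchymal transition, had 73 counts in parental cells and 1 in LNCaP-ENZ cells (-4.56, -11.3 to -3.48), and COL1A1 stood at -0.79.

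All 5 expressed superfamily ligands had negative log2 ratios, among them BMP6 (192 and 58 counts, -1.51) and BMP7 (82 and 39 counts, -0.85). Of 8 receptors 7 had negative log2 ratios, with BMPR2 at -0.99 (2824 and 1245 counts) and ENG at -1.01 (32 and 13 counts). Over all 14767 genes at a mean of at least 1 CPM, 9196 had negative and 5571 positive log2 ratios. Of the other SMADs, SMAD9 stood at -1.05, SMAD5 at -0.77 and the inhibitory SMAD6 at 0.21. In the latency list LRRC32 (45 and 13 counts, -1.48), a surface anchor of latent TGF-beta, and THBS1 (34 and 10 counts, -1.42), an activator, were lower, and LTBP3 (0.18) and the convertase FURIN (0.16) lay just above 0. The endothelial markers also differed between these libraries, with 348 counts in parental and 46 in LNCaP-ENZ cells over 4 genes. Nearly all of the parental counts were VWF (345 and 27 counts), while KDR went the other way, with 0 and 16 counts, PECAM1 had 3 in each library and CDH5 was at 0 in both. Leukocyte markers summed to 69 and 97 counts, with ITGAM at 1 and 14. Fibroblast markers summed to 40 and 58, with 4 of the 6 genes at 0 in each library. Both libraries are bulk RNA of a cultured cell line, and which cells carry these counts was not tested.

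**Figure D5:**
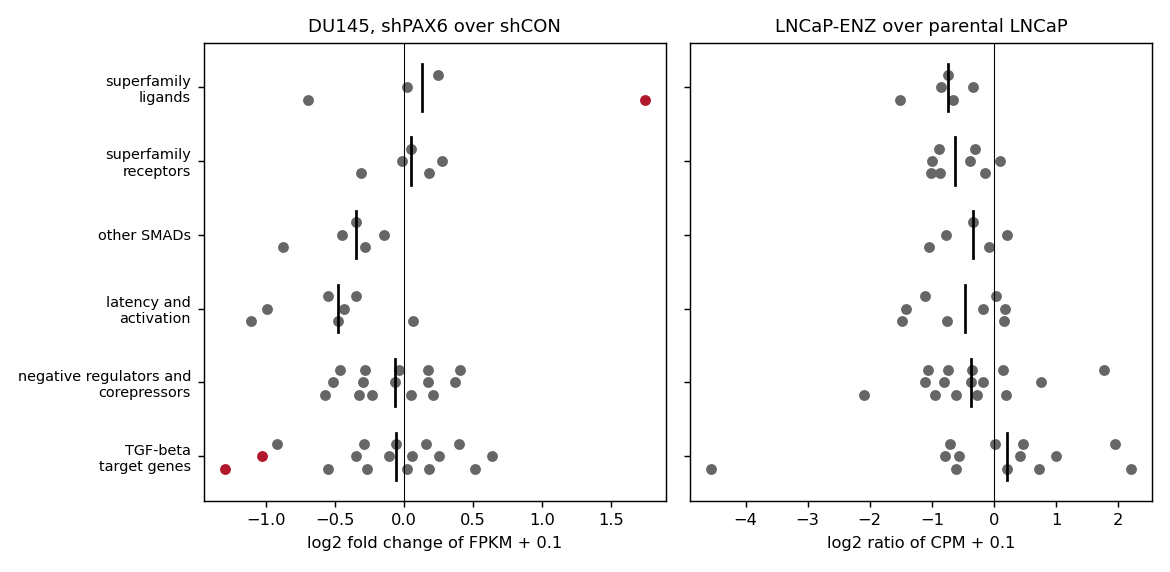
Log2 change of each gene in the 6 pathway lists in DU145 (left, shPAX6 over shCON, 53 genes) and LNCaP (right, LNCaP-ENZ over parental, 54 genes); each point is 1 gene, black bars are list medians, the vertical offset only separates points, and red marks an adjusted p under 0.05 in DU145. BMP6 is the red point at 1.75, CDKN2B and JUNB are the red points at -1.30 and -1.03, and the LNCaP point at -4.56 is SNAI2.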

How the data were processed

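RNA sequencing of 6 DU145 and 2 LNCaP libraries was used, and the 6 ATAC-seq samples were not. Per the methods of the study, libraries were made with an oligo-dT primer, aligned with HISAT2 to GRCh37 and quantified with StringTie. The deposited DU145 table names no unit and was taken to hold FPKM computed by the authors. The deposited LNCaP table holds raw counts and TPM, which are the counts per gene length, rescaled by the authors. The program that made the counts is not given in the sources used here.

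DU145 values were tested as log2(FPKM + 0.1) with limma 3.58.1 (eBayes with trend, R 4.3.3), for features with a mean FPKM of at least 0.5, with Benjamini-Hochberg adjustment, two-sided, at 0.05. The 0.1 added before taking logs understates changes of low genes. The log2 change of PAX6 was -2.69 with 0.1, -3.79 with 0.01 and -0.97 with 1. The test was checked on simulated data. LNCaP counts were scaled by library totals, with exact 95% intervals and no test. Ratios used exact permutation tests (scipy 1.17.1). Groups came from the sample labels. The replicate numbers of shCON and shPAX6 libraries did not pair, since the correlations of their deviations were -0.17, -0.37 and 0.05.

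Genes named are the 9 members, PAX6, up to 2 of the largest changes per direction in each of the 6 pathway lists (leaving out values within 0.1 of 0), list genes that passed, LTBP3 and LTBP4 beside their paralogs, and the 5 features most like a member that passed. ACVR1 in LNCaP fell under the exception. LTBP3, LTBP4 and the marker genes were named after their values were seen. Summed levels of the luminal markers are not reported here. The members and lists were chosen with earlier results of these data known. Alternatives were other pseudocounts, filters and scalings, the replicate block, a GC correction, each library left out in turn and, added after seeing the data, libraries rescaled to the same FPKM sum.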

Additional observations from a re-analysis of the deposited data

How the results depend on the processing

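In DU145 the number of members that passed was 1, and 0 with no filter, with the replicate block, with the block and GC correction, and with libraries rescaled to the same FPKM sum; without 1 library it ran from 0 to 2. Of the pathway genes 3 passed, against 0 with no filter, 0 with the block, 5 with the GC correction, 0 with the block and GC correction, 1 with rescaled libraries, and 0 to 7 without 1 library. The adjusted p of TGIF2 was 0.065, 0.22, 0.13 and 0.075 in the first 4 settings and 0.011 to 0.29 without 1 library. The median log2 change of all features, -0.12, was 0.06 with median centring, 0.01 with quantile normalization, 0.02 with the GC correction and -0.20 with rescaled libraries. All-feature calls numbered 163, and 0 with the replicate block, 230 with the GC correction, 27 with both, 87 with rescaled libraries, 100 with median centring, 924 without shPAX6 library 1, 899 without library 2, 10 without library 3, and 0, 5 and 0 without shCON libraries 1, 2 and 3. The direction turned for members near 0: TGFB1 to 0.084 with the GC correction, with and without the block; TGFBR1 to -0.0095 with rescaled libraries; SMAD3 to 0.018 with quantile normalization, 0.088 with median centring and 0.092 with the GC correction, with and without the block; and TGIF1 to 0.079, 0.17 and 0.049 in the same settings. Without 1 library the log2 change ran from -0.18 to 0.30 for TGFBR1, -0.27 to 0.47 for TGFBR2, -0.36 to 0.19 for SMAD3, -0.22 to 0.23 for TGIF1, -0.59 to 0.0302 for ACVR1B and -0.88 to 0.0158 for SMAD9, and the TGFBR2 to TGFBR1 ratio from -0.0899 to 0.16. In LNCaP 0 members passed 2-fold, and 1, TGFB1, did with a pseudocount of 0.01, with TMM factors and with the median set to 0. TMM factors moved the median of expressed genes from -0.15 to -0.0095, and the TPM moved it to -0.23; TGIF2 was 0.04 and -0.19 in those settings and SMAD7 0.18 and -0.05. The causes were not tested. The unknown depth of DU145 and the single LNCaP libraries limit all of these values.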
